A study of Mus musculus with 2 samples.

Results

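Genes of the acute-phase response and of complement, 10 in all, were followed in neonatal mouse epidermis: the serum amyloid A genes Saa1, Saa2 and Saa3, the plasma carrier genes Hp, Orm1 and Lrg1, the siderophore binder Lcn2, the complement genes C3 and Cfb, and the long pentraxin Ptx3. They are 10 of 23183 gene rows and were picked by symbol. The list was drawn up with the levels of these genes in both libraries already known, so their differences are described here and not tested. RNA had been sequenced from the epidermis of wild-type C57BL/6 mice (WT) and of C57BL/6 mice homozygous for the allele L19M of Foxn1, a forkhead transcription factor gene of keratinocytes (labelled Foxn1L19M/L19M and called L19M below). Each genotype has 1 library, and the sources used here do not give the number, exact age or sex of the animals behind it. No spread between animals can be had, no p-value is given, and genotype cannot be told apart from animal, litter or preparation. The stated aim was to compare keratinocyte function in epidermis with and without the allele.

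Acute-phase proteins are secreted in larger amounts during infection and injury, classically by the liver under the control of interleukin-6 and interleukin-1. Their genes answer to the transcription factors STAT3, NF-kappaB and C/EBP. Several are also made locally by epithelia, where they bind microbial ligands, iron carriers or free haemoglobin, or feed the complement cascade on tissue surfaces.

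The WT library held an estimated 14160473 fragments and the L19M library 19217856. Levels are FPKM, in which fragment counts are divided by transcript length and library size. The log2 ratio is that of L19M over WT after adding 1 FPKM to each, which understates the difference of low genes. A gene counted as measured at a mean of at least 1 FPKM over both libraries and was called when also at least 2-fold apart on that scale. Intervals are exact 95% intervals on estimated fragments and cover counting error only. Copies made by PCR are not independent molecules, so the intervals may be too narrow even for counting error. Epidermal identity was plain in both libraries, with the basal keratin Krt5 at 3262 FPKM in WT against 3380 FPKM in L19M and the suprabasal keratin Krt10 at 9337 and 8193 FPKM. Foxn1 itself had 3.74 FPKM in WT against 5.44 FPKM in L19M, a level that does not check an allele defined by an amino acid change. In whole tissue, fewer cells of a type and less RNA per cell cannot be told apart.

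The acute-phase genes did not move as one group. Saa1, Saa3 and Lcn2 were higher in the L19M library, Saa2 was nearly absent from both, and Hp, Orm1 and C3 had ratios near 1. Lrg1, Cfb and Ptx3 lay under the floor, with counting intervals that held 1 and, on at least 1 side, a 2-fold difference. Of the 10 members, 6 were measured, 3 were called higher and 0 lower. Among all 11841 measured genes, 0.532% were called higher and 1.71% lower. The members were chosen with this contrast known, so nothing is read from their share. At 4-fold, 2 members were higher, beside 0.245% of measured genes higher and 0.718% lower. At 1.5-fold, 3 were higher, beside 1.99% of measured genes higher and 4.07% lower. Saa1, Saa3 and Lcn2 passed the 1 FPKM floor through their L19M level alone. Over all 10 members, with no floor, the median log2 ratio was 0.10, against 0 for all genes with no floor. It was 0.0049 for all measured genes, with quartiles of -0.17 and 0.16.

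**Figure D1:**
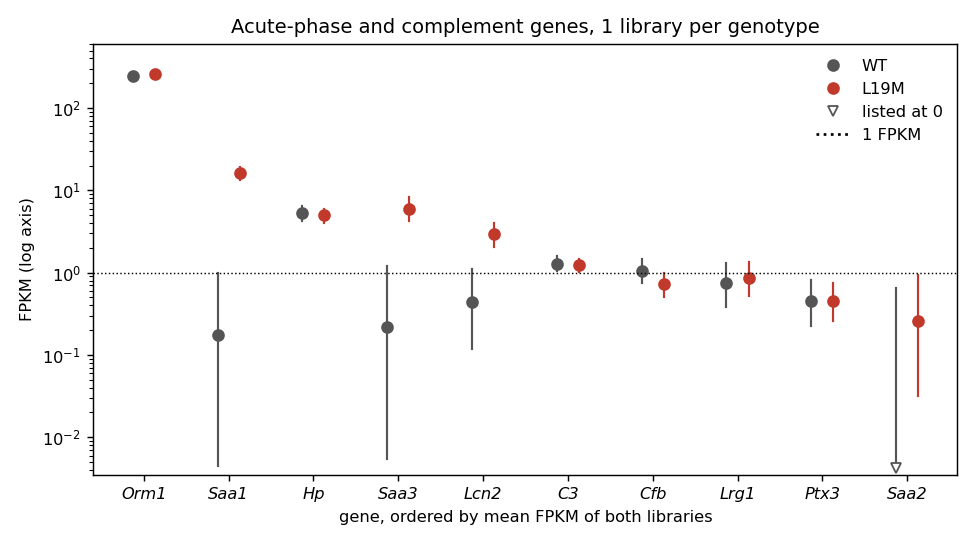
FPKM (log axis) of the 10 genes in the WT (grey) and L19M (red) libraries, ordered by mean. Lines are exact 95% counting intervals and the open triangle marks Saa2, listed at 0 in WT. The intervals of the libraries are apart for Saa1, Saa3 and Lcn2 and overlap for the other genes.

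Serum amyloid A proteins are small apolipoproteins that ride on high-density lipoprotein and bind retinol and bacterial surfaces. In the mouse Saa1 and Saa2 are the main liver forms, while Saa3 is made chiefly outside the liver, by macrophages, fat and epithelia. Saa1 (Entrez 20208, minus strand, chromosome 7, 46740499 to 46742980, mm10) was the member with the largest log2 ratio. It had 0.176 FPKM in WT, from 1 estimated fragment, and 16.04 FPKM in L19M, from 122 fragments. The L19M level had a counting interval of 13.3 to 19.1 FPKM, and the WT level one of 0.00447 to 0.984 FPKM. The FPKM ratio was 90.9, with an interval of 15.99 to 3616, so its size is poorly fixed by the single WT fragment. The log2 ratio of 3.86 ranked 6 among the 11841 measured genes. Saa1 moved from rank 14441 of all genes by level in WT to rank 4099 in L19M.

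Saa3 (Entrez 20210, minus strand, chromosome 7, 46711998 to 46715676) had 0.218 FPKM in WT, again from 1 fragment, and 6.01 FPKM in L19M from 37 fragments. The FPKM ratio of 27.6 had an interval of 4.66 to 1119, and the log2 ratio was 2.53, at rank 17 among measured genes. Saa2 (Entrez 20209, plus strand, chromosome 7, 46751833 to 46754314) was listed at 0 in WT and had 0.261 FPKM in L19M, from 2 fragments. A count of 0 allows up to 3 fragments, or 0.526 FPKM for Saa2 in WT, so no fold is given and no difference was detectable at this depth. Saa4, the constitutive form, was listed at 0 in both libraries. In the L19M library, then, Saa1 and Saa3 RNA was present and Saa2 RNA was at the limit of detection.

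Saa1 and Saa2 are close copies, and the sources used here do not say how the authors assigned fragments that fit more than 1 gene. Their transcripts were 93.9% identical over 609 aligned positions, while Saa1 and Saa3 were 61.0% identical. None of the 510 stretches of 100 bases in the Saa1 transcript occurs unbroken in that of Saa2 (0 shared). The sources used here do not give the read length, so the split of fragments between Saa1 and Saa2 carries that uncertainty. Summed with Saa3, they had 0.394 FPKM in WT against 22.3 FPKM in L19M.

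The bases just before the gene start are shown for the genes called higher and for Saa2, the near copy of Saa1 that stayed at the limit of detection. Each is the 250 bases upstream of the RefSeq start in GRCm38.p6 (the assembly of mm10), written 5′ to 3′ on the gene's own strand. Saa1 is chr7:46742981-46743230 (minus strand), Saa2 chr7:46751583-46751832 (plus strand), Saa3 chr7:46715677-46715926 (minus strand) and Lcn2 chr2:32387740-32387989 (minus strand). Capitals mark matches on either strand to a loose NF-kappaB motif (GGG, any 5 bases, CC) or a C/EBP motif, TTNNGNAA.
Saa1: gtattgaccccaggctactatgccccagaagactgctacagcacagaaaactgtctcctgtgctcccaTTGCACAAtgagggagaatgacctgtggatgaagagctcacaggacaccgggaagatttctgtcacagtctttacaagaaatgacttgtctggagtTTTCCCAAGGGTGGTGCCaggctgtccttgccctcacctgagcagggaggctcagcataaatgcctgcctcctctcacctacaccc
Saa2: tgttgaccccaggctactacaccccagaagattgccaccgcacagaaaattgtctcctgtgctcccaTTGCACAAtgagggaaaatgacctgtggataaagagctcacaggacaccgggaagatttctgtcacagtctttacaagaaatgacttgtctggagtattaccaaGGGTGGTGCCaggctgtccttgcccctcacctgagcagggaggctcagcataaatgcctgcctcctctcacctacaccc
Saa3: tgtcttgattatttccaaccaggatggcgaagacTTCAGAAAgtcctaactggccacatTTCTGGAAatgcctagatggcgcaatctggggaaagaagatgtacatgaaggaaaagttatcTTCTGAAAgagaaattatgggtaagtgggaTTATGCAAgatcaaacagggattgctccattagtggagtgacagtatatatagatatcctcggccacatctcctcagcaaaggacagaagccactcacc
Lcn2: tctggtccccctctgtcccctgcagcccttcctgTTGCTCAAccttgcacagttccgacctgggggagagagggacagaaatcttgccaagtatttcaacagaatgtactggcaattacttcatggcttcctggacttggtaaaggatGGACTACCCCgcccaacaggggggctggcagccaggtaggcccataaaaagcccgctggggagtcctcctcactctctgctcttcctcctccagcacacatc

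Saa1 and Saa2 differed little in these windows, with 94.8% identity over 251 aligned positions, against 48.2% between Saa1 and Saa3. Both held the C/EBP match TTGCACAA, at -182 to -175 from the start in Saa1 and at -183 to -176 in Saa2. Both also held GGGTGGTGCC, an NF-kappaB match, at -78 to -69 in Saa1 and at -79 to -70 in Saa2. Saa1 alone of the pair had a second C/EBP match, TTTCCCAA, at -86 to -79, which abuts the NF-kappaB match and so reads as 1 run of capitals. Saa3 held 4 C/EBP matches and 0 NF-kappaB matches, and Lcn2 held 1 of each. RefSeq windows matched 7 of the 10 members. The NF-kappaB letters occurred in 5 of them (Saa1, Saa2, Lcn2, Lrg1 and C3) and in 45.8% of all 32817 windows of that length. The C/EBP letters occurred in 6 (all but Lrg1) and in 36.8% of all windows. The STAT3 letters TTCNNNGAA occurred in 0 of the 7 and in 7.01% of all windows. A match of letters is not a bound site, and genes that were called and genes that were not both held such matches. No window is shown for Hp, Orm1 and Cfb.

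The serum amyloid genes lie together on chromosome 7, and the difference there was gene by gene. Within 50 kb of Saa1 the table lists Saal1, Saa3, Saa4, Saa2 and Hps5. Saal1, whose start lies 5.03 kb from that of Saa3, had 2.84 FPKM in WT against 2.87 FPKM in L19M. Hps5, a lysosome biogenesis gene on the far side of Saa2, had 3.14 and 3.93 FPKM. Neither was called, and no other gene of that window besides Saa3 was. The flanking gene Tph1, within 50 kb of Saa3, was listed at 0 in WT and had 0.255 FPKM in L19M from 23 fragments. It was not measured and is named after its value was seen.

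**Figure D2:**
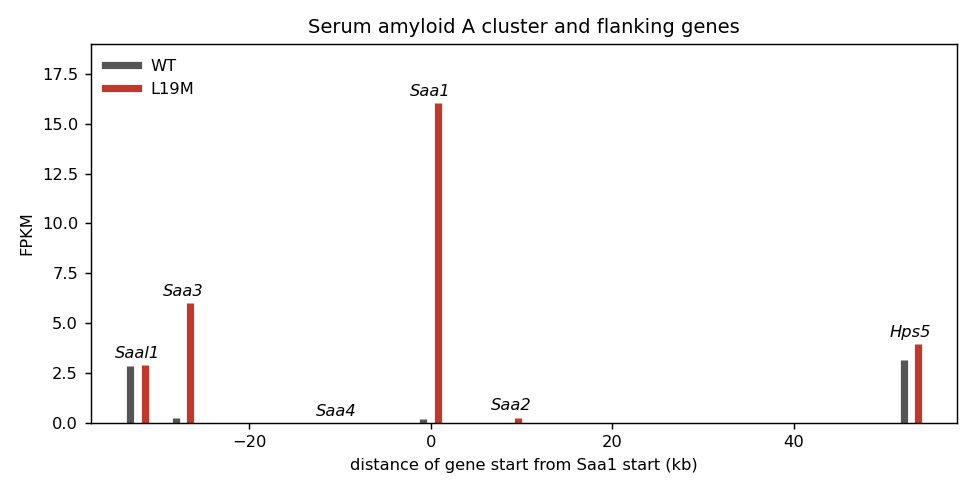
FPKM in WT (grey bars) and L19M (red bars) of genes within 50 kb of Saa1, placed by the distance in kb of each gene start from that of Saa1 along the chromosome. Saa1 and Saa3 stand out in L19M, at 16.04 and 6.01 FPKM, while the flanking genes Saal1 and Hps5 differed by less than 2-fold.

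Lcn2 encodes lipocalin-2, which starves bacteria of iron by binding their siderophores and is made by stressed epithelia and stored in neutrophil granules. Lcn2 (Entrez 16819, minus strand, chromosome 2, 32384637 to 32387739) had 0.437 FPKM in WT from 4 fragments and 2.92 FPKM in L19M from 36 fragments. The ratio of 6.68 carried an interval of 2.39 to 25.8, and the log2 ratio was 1.45, at rank 43 among measured genes. The WT interval ended at 1.12 FPKM and the L19M interval began at 2.04 FPKM. Lcn2 is thus a gene of low level in both libraries, and its call depends on the pseudocount. With 5 FPKM added in place of 1 its log2 ratio was 0.54, under 2-fold. None of the 5 genes within 50 kb of Lcn2 was called (0 of 5).

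The plasma carrier genes Orm1, Hp and Lrg1 showed no difference of 2-fold. Orm1 (Entrez 18405, plus strand, chromosome 4, 63344566 to 63348162), which encodes the alpha-1-acid glycoprotein that carries basic drugs and lipids in plasma, was by far the most abundant member. It had 243 FPKM in WT against 259 FPKM in L19M, from 1932 and 2775 fragments. It held rank 369 of 23183 genes in WT and rank 316 in L19M. The Orm1 ratio was 1.07, with an interval of 1.01 to 1.13, the narrowest among the members, and its log2 ratio was 0.09. Its copies on chromosome 4 were close to absent: Orm2 had 0.249 FPKM in WT against 0.555 FPKM in L19M, and Orm3 had 0.249 and 0.0926 FPKM. The Orm1 and Orm2 transcripts were 91.0% identical, and 6.95% of the 100-base stretches of Orm1 occur unbroken in Orm2.

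Hp (Entrez 15439, minus strand, chromosome 8, 109575128 to 109579172) encodes haptoglobin, which captures haemoglobin freed from red cells. Hp had 5.27 FPKM in WT against 4.96 FPKM in L19M, from 85 and 108 fragments. Its ratio of 0.940 carried an interval of 0.701 to 1.26. Lrg1 (Entrez 76905, minus strand, chromosome 17, 56119678 to 56121946) encodes a secreted leucine-rich glycoprotein that modulates TGF-beta signalling in endothelium. Lrg1 had 0.739 FPKM in WT against 0.866 FPKM in L19M, from 12 and 19 fragments, and did not reach the 1 FPKM floor. Its ratio of 1.17 had an interval of 0.540 to 2.64, wide enough to hold a 2-fold difference in L19M. The lipid droplet gene Plin4, next but 1 to Lrg1 and named after its value was seen, was lower in L19M at 1.79 FPKM in WT against 0.375 FPKM in L19M.

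C3, Cfb and Ptx3 were low, and none was called. C3 is the component on which all complement pathways converge, and Cfb supplies the protease of the alternative pathway convertase. C3 (Entrez 12266, minus strand, chromosome 17, 57203967 to 57228136) had 1.29 FPKM in WT against 1.22 FPKM in L19M, from 90 and 116 fragments. Its ratio of 0.9503 carried an interval of 0.716 to 1.27. Cfb (Entrez 14962, minus strand, chromosome 17, 34856374 to 34862514) had 1.06 FPKM in WT against 0.718 FPKM in L19M, from 38 and 35 fragments. Its ratio was 0.680 (interval 0.417 to 1.11), the member ratio furthest below 1, and its mean lay under the floor. Ptx3 encodes a secreted pattern recognition protein of stromal and myeloid cells that binds complement C1q. Ptx3 (Entrez 19288, plus strand, chromosome 3, 66219887 to 66225806) had 0.453 FPKM in WT against 0.456 FPKM in L19M, from 11 and 15 fragments. Its ratio of 1.01 had an interval of 0.432 to 2.42, so a 2-fold difference either way was not detectable at this depth.

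**Figure D3:**
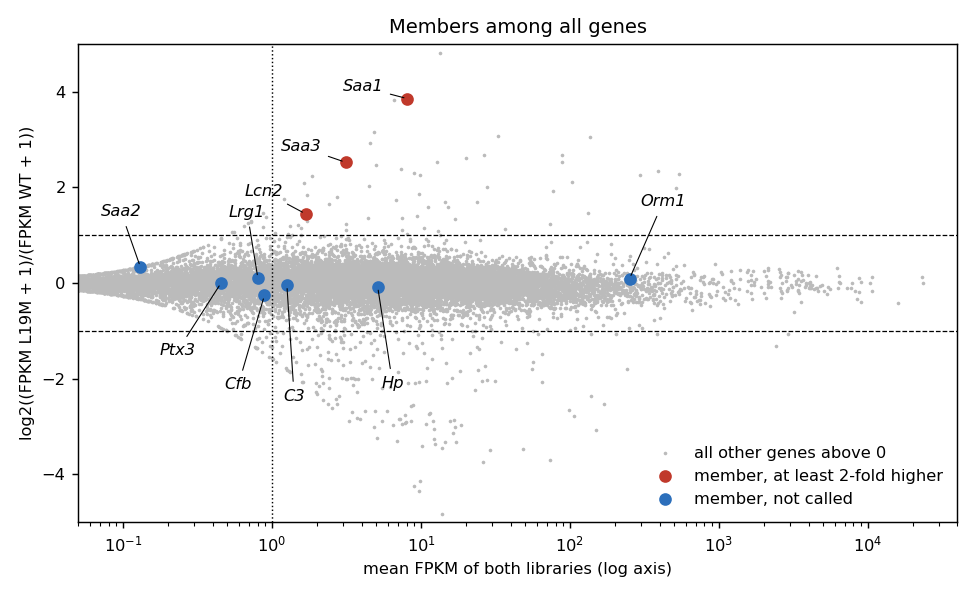
Log2 ratio of L19M over WT (1 FPKM added) against mean FPKM of both libraries (log axis), with all genes in grey and the 10 members labelled. Dashed lines mark 2-fold and the dotted line the 1 FPKM floor. Of genes above 0, 1372 with means under 0.05 FPKM and 7 with log2 ratios beyond 5 either way are not drawn. Saa1, Saa3 and Lcn2 lie above the 2-fold line and the other members lie near 0.

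The order of the members by level differed between the libraries. In WT it ran Orm1, Hp, C3, Cfb, Lrg1, Ptx3, Lcn2, Saa3, Saa1, Saa2, and from C3 downwards each gene's counting interval overlapped that of the next. In L19M it ran Orm1, Saa1, Saa3, Hp, Lcn2, C3, Lrg1, Cfb, Ptx3, Saa2. There the intervals of Saa3 and Hp overlapped, as did each neighbouring pair from C3 downwards, and the other neighbours were apart. Orm1 made up 96.2% of the summed FPKM of the 10 genes in WT and 88.6% in L19M. The Saa1, Saa2 and Saa3 share of that sum was 0.156% in WT and 7.62% in L19M. Without Orm1 the members summed to 9.64 FPKM in WT against 33.4 FPKM in L19M.

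Other proteins of the classical acute phase were mostly below 1 FPKM. Of 26 such genes, 6 were measured, 1 was called higher and 0 lower, and the median log2 ratio was 0.12, or 0 over all 26 with no floor. The called gene was Serpina3n, a secreted inhibitor of serine proteases, at 0.677 FPKM in WT against 4.80 FPKM in L19M. Its ratio of 7.10 carried an interval of 4.36 to 12.3 from 18 and 173 fragments. Like Lcn2 it passed the floor through L19M alone, and its call was lost with 5 FPKM added, with a 5 FPKM floor or at 4-fold (0 higher). Its paralogue Serpina3i (1.74 and 2.76 FPKM, log2 ratio 0.45), the metallothionein Mt1 (214 and 250 FPKM, 0.22) and the interleukin-1 receptor antagonist Il1rn (75.3 and 65.7 FPKM, -0.19) were under 2-fold. The pentraxins Crp and Apcs and the fibrinogen chains Fgb and Fgg were among 8 genes listed at 0 in both libraries.

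Complement genes other than C3 and Cfb had no call. Of 36 found in the table, 13 were measured, with 0 higher, 0 lower and a median log2 ratio of 0.09. The genes furthest from equality were regulators that protect host cells, Cd59a at 6.62 FPKM in WT against 11.6 FPKM in L19M (log2 ratio 0.73) and Cd55 at 4.14 and 2.36 FPKM (-0.61). The C1q chains, products of macrophages, differed in sign: C1qb had 27.5 and 37.8 FPKM (0.44) and C1qa 29.0 and 22.9 FPKM (-0.33). C2, the neighbour of Cfb and its counterpart in the classical pathway, had 1.88 and 2.42 FPKM.

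Receptors and carriers of these proteins also had no call. Of 24, 12 were measured, 11 of them above 0 and 1 below, with a median log2 ratio of 0.20. Some genes of this list, such as Fcgr1, C3ar1 and Cfp, are also in the macrophage or complement list, so the lists are not separate. Cd14, the lipopolysaccharide co-receptor, had 2.14 FPKM in WT against 4.13 FPKM in L19M (0.71). Fcgr1, a high-affinity IgG receptor, had 0.622 and 1.51 FPKM (0.63), the lipoprotein receptor Scarb1 9.29 and 13.02 FPKM (0.45) and Cd36 19.4 and 15.2 FPKM (-0.34). Fpr2, a receptor for serum amyloid A on phagocytes, was not measured and is named after its value was seen. It was listed at 0 in WT, where 3 fragments would be 0.195 FPKM, and had 0.623 FPKM in L19M from 13 fragments. The haptoglobin receptor Cd163 had 0.733 and 0.706 FPKM.

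Cytokines that induce acute-phase genes were measured in 6 of 22 cases, with 0 called higher and 0 lower. Their median log2 ratio was 0.23, which turned to -0.03 with a 5 FPKM floor. Il1a had 18.5 FPKM in WT against 10.6 FPKM in L19M (-0.75), while Il1f9, now called Il36g, had 57.8 and 82.4 FPKM (0.50). Il33 had 2.68 and 4.02 FPKM (0.45) and Il1f8, now Il36b, 171 and 132 FPKM (-0.37). Il6, the main inducer in liver, was listed at 0 in both libraries, where 3 fragments would be 0.241 FPKM in WT against 0.178 FPKM in L19M. So were Il17a, Il17f, Il20, Il22, Ifng and Csf3. Il24, named after its value was seen, was listed at 0 in WT and had 0.690 FPKM in L19M from 12 fragments. The receptors of these cytokines were nearly all present, with 22 of 24 measured, 0 called and a median of 0.19. Ifngr1 (9.74 and 14.6 FPKM, 0.54), Lifr (5.86 and 8.95 FPKM, 0.54), Traf3ip2 (9.50 and 12.9 FPKM, 0.40) and Osmr (0.793 and 1.33 FPKM, 0.38) had the largest ratios.

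In the NF-kappaB, C/EBP and STAT3 list, 23 of 28 genes were measured and 0 were called, with 19 log2 ratios above 0 and 4 below and a median of 0.24. Bcl3, an atypical inhibitor of NF-kappaB that acts in the nucleus, came closest, at 1.605 FPKM in WT against 4.16 FPKM in L19M. Its log2 ratio was 0.99, and it passed 2-fold when L19M was scaled to the upper quartile of WT. With 0.1 FPKM added in place of 1, 2 genes of the list passed, Bcl3 and Tnfaip3. Their FPKM ratios were 2.60 (interval 1.79 to 3.85) and 2.40 (interval 1.68 to 3.59). The feedback genes Tnfaip3 (0.644 and 1.54 FPKM, 0.63), Socs3 (2.58 and 4.43 FPKM, 0.60) and Nfkbia (70.1 and 102 FPKM, 0.54) followed. Cebpb (164 and 139 FPKM) and Cebpa (214 and 214 FPKM) were abundant, and Stat3 had 27.5 and 34.3 FPKM.

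**Figure D4:**
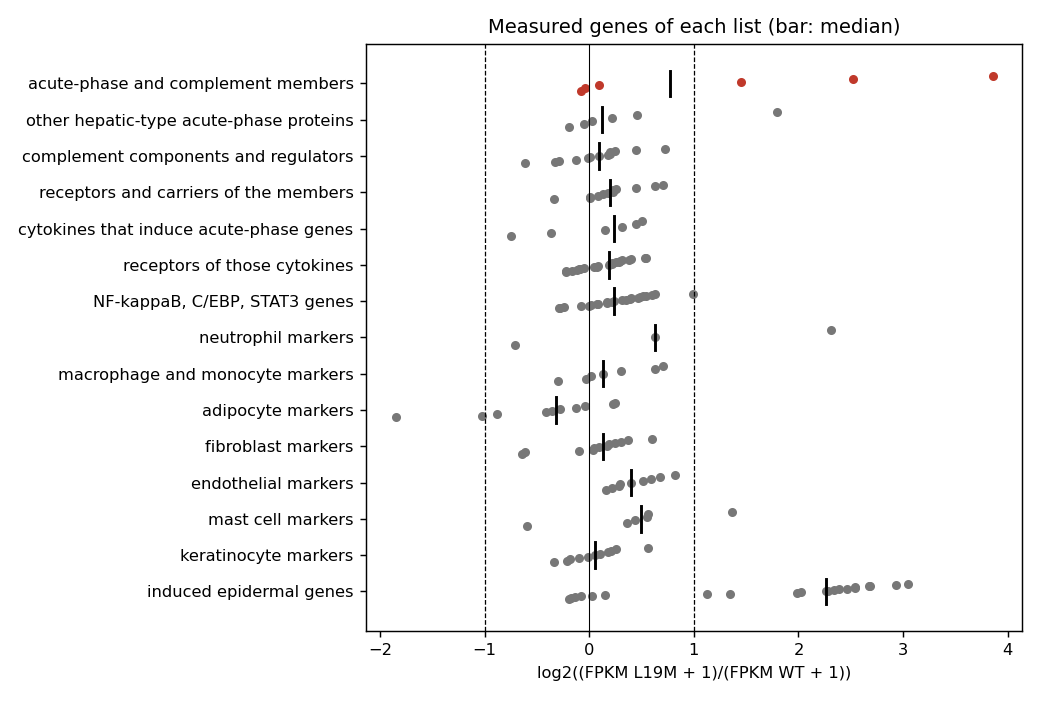
Log2 ratio of L19M over WT for each measured gene (points) of the acute-phase and complement members (red) and of each gene list (grey), with the median as a bar. Dashed lines mark 2-fold. The induced epidermal list, drawn up with this result known, had 15 of 21 measured genes at least 2-fold higher. The share over all measured genes was 0.532%. The cytokine, receptor and transcription factor lists had none.

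Most measured genes known to be induced in wounded and inflamed epidermis were higher in the L19M library, as were Saa1, Saa3 and Lcn2. Of 21 measured genes in that list, 15 were called higher and 0 lower, beside 0.532% and 1.71% of all measured genes. The median log2 ratio of the 21 was 2.27. That median covers the genes that passed the floor, and it was 0.62 over all 34 found in the table with no floor and 1.39 with 5 FPKM added. Of the measured genes, 4 had log2 ratios below 0. Of the 34, 7 were listed at 0 in WT and 1 in L19M. The list was drawn up with this result known and also holds Hp, so its direction is not independent evidence. Sprr2d, a cornified envelope precursor, had 28.6 FPKM in WT against 244 FPKM in L19M (3.05). The beta-defensin Defb4 had 0.280 and 8.80 FPKM (2.94) and passed the floor through L19M alone. The envelope gene Lce3d (6.39 and 46.5 FPKM, 2.68) and the alarmin S100a9 (23.2 and 154 FPKM, 2.67) were next.

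Markers of other cells known to make these proteins were read beside them. No hepatocyte marker was measured (0 of 12), and the list summed to 3.42 FPKM in WT against 1.02 FPKM in L19M. Alb, the albumin gene, had 0.346 and 0.256 FPKM, and Apoh, Fgb and Tat were listed at 0 in both. Of 17 neutrophil markers found in the table, 3 were measured and 1 was higher, with a median log2 ratio of 0.63 and sums of 28.7 FPKM in WT against 34.98 FPKM in L19M. Stfa2l1, a stefin, had 2.36 and 15.7 FPKM (2.31), Il1r2, a decoy receptor, 23.6 and 14.0 FPKM (-0.71) and Cxcr2 0.871 and 1.89 FPKM (0.63). Most of the WT sum was thus Il1r2, which was lower in L19M, while Stfa2l1 and Cxcr2 were higher. Mpo, Elane, Camp, Fcnb and Ceacam10 were listed at 0 in both. The median was 0 over all 17 with no floor, 0.23 with 5 FPKM added and 1.04, with 2 genes called higher, with 0.1 FPKM added. Of the 14 markers under the floor, 6 had log2 ratios above 0 and 3 below. The 5 of them given next are named after their values were seen. All of these but Ltf were higher in L19M, so they do not stand for the 14. Mmp9 is also in the induced epidermal list. Mmp8, a neutrophil collagenase, had 0.0629 and 0.696 FPKM from 2 and 30 fragments, a ratio of 11.1 (interval 2.81 to 95.6). Mmp9 had a ratio of 6.64 (interval 1.59 to 59.01) and the cytokine receptor Csf3r one of 2.35 (interval 1.19 to 4.91). Ltf and Ngp, which neutrophils store in the same granules as Lcn2, had 6 and 2 fragments in WT and 0 and 7 in L19M. The part of neutrophils in the Lcn2 difference was not tested.

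Macrophage markers had 7 of 12 measured, 0 called and a median log2 ratio of 0.13, with sums of 37.2 FPKM in WT against 47.0 FPKM in L19M. Lyz2 (10.4 and 17.5 FPKM, 0.70), Fcgr1, Cd68 (7.33 and 9.24 FPKM, 0.30) and Adgre1 (4.58 and 3.55 FPKM, -0.29) were furthest from 0, and Vsig4 was listed at 0 in both. Adipocyte markers had 10 of 13 measured, 0 higher and 2 lower, with a median of -0.32 and sums of 413 and 321 FPKM. The lower genes were Retn (29.2 and 7.39 FPKM, -1.85) and Plin1 (6.15 and 2.52 FPKM, -1.02). Next were Adipoq (15.5 and 7.95 FPKM, -0.88) and Pparg (4.69 and 3.26 FPKM, -0.42). Scaling L19M to the upper quartile of WT left 1 of the 2 calls, as Plin1 then fell short of 2-fold. None of these adipocyte markers was listed at 0 in both libraries (0 of 13). The part of macrophages and fat cells in the levels of Saa3, Lcn2 and Orm1 was not tested.

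Endothelial markers had 9 of 11 measured, 0 called and all 9 above 0, with a median of 0.40 and sums of 27.1 FPKM in WT against 40.1 FPKM in L19M. Plvap (1.83 and 4.01 FPKM, 0.82), Esam (1.33 and 2.72 FPKM, 0.68), Emcn (1.86 and 3.30 FPKM, 0.59) and Cldn5 (6.25 and 9.37 FPKM, 0.52) had the largest ratios. Fibroblast markers had 12 of 13 measured, 0 called and a median of 0.13, with sums of 976 and 968 FPKM. Lum (46.7 and 29.6 FPKM, -0.64), Postn (182 and 119 FPKM, -0.61), Pdgfrb (1.02 and 2.06 FPKM, 0.60) and Thy1 (18.3 and 24.0 FPKM, 0.37) were furthest from 0. Mast cell markers had 6 of 9 measured, 1 higher and a median of 0.50, with sums of 107 and 136 FPKM. Hdc (2.03 and 6.78 FPKM, 1.36) was the called gene, with Mcpt4 (24.2 and 15.6 FPKM, -0.60), Kit (2.66 and 4.40 FPKM, 0.56) and Cpa3 (34.8 and 51.7 FPKM, 0.55) next. The Hdc call was lost with 5 FPKM added, with a 5 FPKM floor or at 4-fold (0 higher). The part of these cells in the members' values was not tested. Keratinocyte markers had all 11 of those in the table measured, 0 called and a median of 0.05. Trp63 (55.5 and 82.5 FPKM, 0.56), Lor (9384 and 7416 FPKM, -0.34), Sfn (1100.2 and 1313 FPKM, 0.26) and Dsg1a (192 and 165 FPKM, -0.22) were furthest from 0.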

How the data were processed

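Poly(A)-selected RNA of neonatal epidermis was made into libraries with a directional kit, per the labels' protocols, with 1 library for WT and 1 for L19M. The authors deposited FPKM values per gene, headed as raw data, beside log2 values that, per the file headers and information sheet, had been quantile normalized and lay within 0.0476 of log2(FPKM + 1). The deposited fold ratio, L19M divided by WT, was taken from the normalized values. Cufflinks, edgeR and R 3.5.1 are named per the submitters' processing notes, with no role. The aligner and any use of strand in counting are absent from the labels and headers used here. The authors' information sheet names mm10 and the processing notes GRCm39; all 10 members started within 10 bases of RefSeq's GRCm38 gene starts, so coordinates are mm10, counted from 1.

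The planned rule for normalized values was applied, with no count test and no p-value. Calls used a 1 FPKM pseudocount, a floor of 1 FPKM on the mean and a 2-fold threshold. Low FPKM values of transcripts of at least 1000 bases stepped as whole fragments over length less a constant (207 bases in WT, 211 in L19M). Of values up to 20 fragments, 84.3% in WT and 83.6% in L19M came within 0.1 of a whole number, and fragments were estimated from this relation for transcripts of at least 300 bases. Level intervals are Poisson and ratio intervals Clopper-Pearson, both at 95% (scipy 1.17.1). Fitting and calling were tested on simulated data. The calling test changed only genes with a mean of at least 5 FPKM. It therefore did not cover calls at the level of Saa3 and Lcn2 (means of 3.11 and 1.68 FPKM). All members are named, with the 4 measured genes of largest absolute log2 ratio in each list and any called gene of lists with few calls. Members and all 15 lists (300 entries, 8 of them not matched to a row) were chosen with earlier results of these data known. Upstream windows are RefSeq's, transcripts GENCODE M21's, aligned with Biopython 1.88. A planned protein comparison was not run, and 1 list gene is not reported here.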

Additional observations from a re-analysis of the deposited data

How the results depend on the processing

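The limit on every result is the lack of replicates, with low fragment counts in WT for Saa1, Saa3 and Lcn2. No paired analysis was possible because each genotype has 1 library, and no library could be left out. The sign of each of the 10 members' log2 ratios was the same under the 8 pseudocount, filter and scaling settings run. A pseudocount or a filter cannot change that sign. Only the scalings and the authors' normalized values could, and they shift ratios little, so the agreement says little about members near 0 such as Ptx3. Saa1 ranged from 2.02 to 5.87, Saa3 from 1.08 to 4.27 and Lcn2 from 0.54 to 2.49, with the extremes at pseudocounts of 5 and 0.1 FPKM. Of the 10 members, 3 were called higher except with a 5 FPKM floor (1, Saa1), a pseudocount of 5 FPKM (2) or a 4-fold rule (2), and 0 were called lower under every setting run. In the authors' deposited table the folds were 14.6 for Saa1, 5.79 for Saa3 and 2.74 for Lcn2. These folds come from values near log2(FPKM + 1). They restate the log2 ratios on a fold scale and are not ratios of FPKM. Over all genes, calls higher moved from 63 to 120 with a pseudocount of 0.1 FPKM, 39 with 5 FPKM, 41 with a 5 FPKM floor, 29 at 4-fold and 236 at 1.5-fold. Calls lower moved from 203 to 297 with a pseudocount of 0.1 FPKM, 96 with 5 FPKM, 107 with a 5 FPKM floor, 85 at 4-fold and 482 at 1.5-fold. These follow from the thresholds themselves. Scaling L19M to the upper quartile or the median ratio shifted log2 ratios by 0.03 and -0.0060. Of 98 list medians under other settings, 81 stayed within 0.1 of the value given and 17 did not. The scalings and the authors' normalized values shift ratios too little to move a median that far in most cases. Part of that agreement was thus set in advance.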
